A study of Homo sapiens with 3 samples.

Results

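Kinesins are motor proteins that walk along microtubules, and the human genes are named KIF or KIFC with a number. Members were all genes with such a symbol and at least 1 probe set annotated to that gene alone; where a gene had several, the one brightest on average (mean log2 over the 3 arrays) stood for it. This gave 41 of the 19775 genes compared. A further gene, KIF4B, had no such probe set, and 4 antisense genes that carry a kinesin's name were left out. RNA came from KYSE140, an established oesophageal squamous cell carcinoma line grown in serum-containing RPMI medium. The groups were cells given 10 mM cisplatin (the dose as labelled) for 12 h, on 2 arrays titled B1 and B2, and untreated cells, on 1 array. Cisplatin is a platinum compound that forms crosslinks within DNA. Nothing in the labels says that B1 and B2 were independent cultures, so p-values measure only the spread between these arrays, which may be technical. The question was which transcripts differ after cisplatin.

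Kinesins share a motor domain that binds ATP and microtubules, and differ in the tails that choose cargo or position. The mitotic kinesins build the spindle, align chromosomes and complete cytokinesis, and many of their transcripts accumulate in G2 and mitosis. The transport kinesins carry vesicles, organelles and ciliary components, mostly towards the cell periphery. The 41 genes comprised 13 mitotic kinesins, 15 transport kinesins and 13 others, which include ciliary motors and regulators of microtubule length.

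Values were deposited as RMA intensities on a linear scale and are given here as intensities. Differences are log2(cisplatin) minus log2(untreated), and their standard errors (SE) come from limma, which pools the spread over all genes and takes the single untreated array to vary as the cisplatin pair does. Both differences share that untreated array. B2 stood apart from the other arrays: the SD over all genes of the log2 difference was 0.56 for B2 minus B1, against 0.33 for B1 minus untreated, so every difference below is given for each cisplatin array. The squamous markers measured (8 of 10) ranged from 276 to 9458 in B1, from 462 to 12581 in B2 and from 278 to 8776 in untreated cells, whereas leukocyte markers (4 of 6 measured) did not exceed 54.6 and endothelial markers (5 of 5) did not exceed 55.1 on any array. Fibroblast markers (7 of 7) summed to 327 in B1 and 420 in B2, against 297 in untreated cells, and neuronal markers (6 of 6) to 405 and 641, against 444. The keratin KRT14 was at 276 in B1 and 2372 in B2, against 278 in untreated cells. Whether the features that set B2 apart contribute to the values below was not tested.

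No kinesin gene passed the limma test (0 of 41 and 0% of all genes at an adjusted p of 0.05, with a smallest adjusted p of 0.969). At an unadjusted p under 0.05 limma listed 3 kinesins, KIF16B, KIF15 and KIF3B, all lower after cisplatin, and 2.86% of all genes. An exact permutation test of a single gene cannot go below p = 0.333 with 2 arrays against 1. Over the family, 16 of 41 genes (39.0%) were lower in both cisplatin arrays, against 27.4% of all genes. Those higher in both numbered 9 (22.0%), against 39.2% of all genes. Of the remaining 16, 13 were lower in B1 and higher in B2, as were 17.3% of all genes, and 3 were higher in B1 and lower in B2, as were 15.7%. Among the 27 kinesins at a mean log2 value of at least 6, 51.9% were lower and 7.41% higher in both. All genes at that level had 34.2% and 29.8%. KIF16B alone differed by at least 2-fold in both arrays, where 0.678% of all genes were that much lower and 0.142% that much higher. At 1.5-fold the lower genes were KIF13A, KIF15 and KIF16B, 3 of 41 beside 2.65% of all genes, and no kinesin was higher by that much in both arrays, beside 0.956%.

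**Figure D1:**
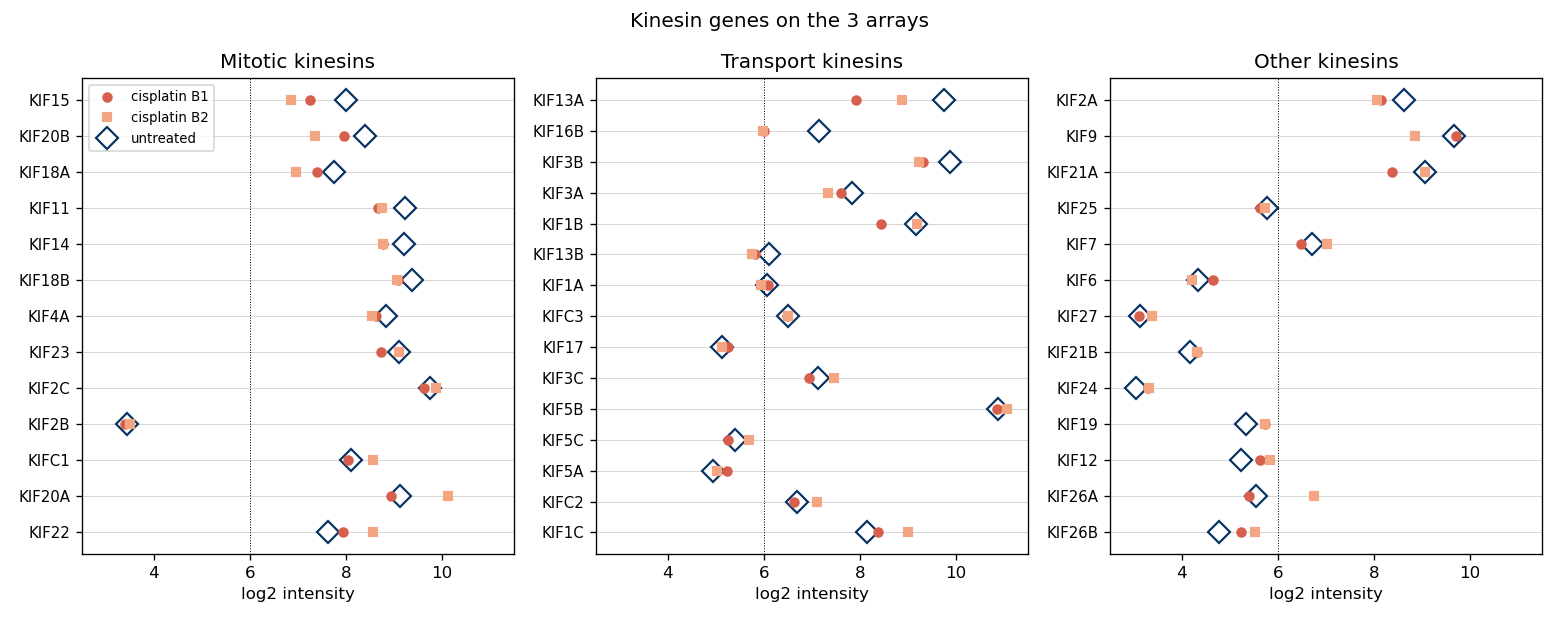
Log2 intensity of each kinesin gene (horizontal axis) on the cisplatin arrays B1 (circles) and B2 (squares) and on the untreated array (open diamonds), by class; the dotted line marks a log2 value of 6. For KIF15, KIF20B, KIF18A, KIF13A and KIF16B both cisplatin symbols lie left of the untreated one, and for KIF20A and KIF26A only B2 lies to the right.

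The median difference of the mitotic kinesins on the log2 scale was -0.28 for B1 and -0.28 for B2, while that of all genes was 0.03 for B1 and 0.05 for B2. Over the mean differences the mitotic median was -0.25. Of the 13 genes, 8 (61.5%) were lower in both arrays and 1 (7.69%) was higher in both, against 27.4% and 39.2% of all genes. Of the 12 at a mean log2 value of at least 6, 66.7% were lower and 8.33% higher in both. All genes at that level had 34.2% and 29.8%. In RNA from whole cultures, fewer cells in G2 and mitosis cannot be told apart from less RNA per cell. Many promoters of genes expressed in G2 and mitosis carry a CCAAT box and a cell cycle homology region (CHR). The bases just before the start are shown here for mitotic kinesins with a CHR that were lower in both arrays. Those higher in both, or higher in B2 only, are shown if they held at least 1 of these motifs. KIF14, KIF18B and KIF20B were also lower in both arrays and held CCAAT but no CHR, and their bases are not shown. Each line gives the 120 bases before the annotated start (RefSeq, GRCh38.p14), 5′ to 3′ on the gene's strand. Capitals mark CHR (TTTGAA or TTCGAA) and CCAAT, searched on both strands, so they also read TTCAAA or ATTGG; no marked motifs overlap. The first 5 genes were lower in both arrays, KIF22 was higher in both, and KIF20A and KIFC1 were higher in B2 only.
KIF15: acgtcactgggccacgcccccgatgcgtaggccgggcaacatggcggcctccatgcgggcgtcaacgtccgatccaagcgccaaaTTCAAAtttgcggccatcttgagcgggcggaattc
KIF11: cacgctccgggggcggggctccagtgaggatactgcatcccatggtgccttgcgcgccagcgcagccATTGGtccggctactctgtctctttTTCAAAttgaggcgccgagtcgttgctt
KIF18A: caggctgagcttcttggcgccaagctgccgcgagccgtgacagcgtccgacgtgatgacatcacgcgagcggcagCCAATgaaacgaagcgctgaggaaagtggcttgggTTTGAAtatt
KIF4A: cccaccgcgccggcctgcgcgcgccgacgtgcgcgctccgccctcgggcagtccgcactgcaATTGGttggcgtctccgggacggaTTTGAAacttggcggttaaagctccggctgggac
KIF23: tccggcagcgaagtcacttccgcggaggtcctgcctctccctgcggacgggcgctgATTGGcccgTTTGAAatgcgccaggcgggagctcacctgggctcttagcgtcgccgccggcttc
KIF22: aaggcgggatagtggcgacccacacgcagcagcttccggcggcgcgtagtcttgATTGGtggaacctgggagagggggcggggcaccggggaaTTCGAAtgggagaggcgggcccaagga
KIF20A: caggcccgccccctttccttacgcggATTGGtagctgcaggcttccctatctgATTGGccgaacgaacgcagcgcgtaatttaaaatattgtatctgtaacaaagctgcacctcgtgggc
KIFC1: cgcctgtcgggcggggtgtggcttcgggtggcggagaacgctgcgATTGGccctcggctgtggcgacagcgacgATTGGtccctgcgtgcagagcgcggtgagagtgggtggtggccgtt
The windows lie at chr3:44761674-44761793 (plus strand) for KIF15, chr10:92593010-92593129 (plus strand) for KIF11, chr11:28108157-28108276 (minus strand) for KIF18A, chrX:70289984-70290103 (plus strand) for KIF4A, chr15:69414229-69414348 (plus strand) for KIF23, chr16:29790631-29790750 (plus strand) for KIF22, chr5:138178992-138179111 (plus strand) for KIF20A and chr6:33391703-33391822 (plus strand) for KIFC1. In the 250 bases before the start, CCAAT was found in 11 of 14 mitotic kinesins (78.6%), KIF4B included, and in 33.0% of all 27305 genes with a promoter. CHR was found in 6 of 14 (42.9%), against 14.6% of all genes, and both motifs together in 5 of 14 (35.7%), against 5.26%. The 5 genes with both were KIF11, KIF18A, KIF4A, KIF23 and KIF22, and their log2 differences ran from -0.58 to 0.64. Of 11 transport kinesins with a promoter, 4 held CCAAT and 1 held CHR, and of 9 other kinesins 3 held CCAAT and 0 held CHR. A match describes the letters in this window and no more. Promoters were matched for 34 genes; KIF5A, KIF13B, KIFC2, KIFC3, KIF19, KIF21B, KIF26B and KIF27 had no match.

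KIF15, which helps to hold spindle poles apart, had an intensity of 153 in B1 and 115 in B2, against 256 in untreated cells, which is 1.93-fold lower (log2 -0.74 and -1.15; mean -0.95, SE 0.28; limma adjusted p = 0.969). KIF11 (Eg5), the motor that slides antiparallel microtubules to separate the poles, was at 409 in B1 and 428 in B2, against 600 in untreated cells, which is 1.43-fold lower (log2 -0.55 and -0.49; mean -0.52, SE 0.19). The cisplatin arrays lay close together for KIF11, whereas for KIF15 B2 was the lower of the pair. KIF18A, which shortens kinetochore microtubules and damps chromosome movement, was at 169 and 124 in B1 and B2, against 216 in untreated cells (log2 -0.36 and -0.80). KIF18B, which limits astral microtubules, was at 544 and 533, against 663 in untreated cells (log2 -0.28 and -0.31). For these 4 genes both cisplatin values lay below the untreated one.

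The motors of cytokinesis differed among themselves. KIF20B, needed late in cytokinesis, was at 249 in B1 and 164 in B2, against 335 in untreated cells (log2 -0.43 and -1.03); the mean over its 3 probe sets, all lower in both arrays, was -0.31. KIF14, a partner of citron kinase at the midbody, was at 440 and 434, against 594 in untreated cells (log2 -0.43 and -0.45). KIF23 (MKLP1), a subunit of the centralspindlin complex, was at 424 and 547, against 552 in untreated cells (log2 -0.38 and -0.01). KIF14 thus had nearly the same value in both cisplatin arrays, while this KIF23 probe set was lower mainly in B1. The dim other probe set of KIF23 was lower in both arrays (log2 -0.38 and -0.56), and the mean over both was -0.33. KIF20A (MKLP2), which brings the chromosomal passenger complex to the midzone, went the other way in B2, with 493 in B1 and 1114 in B2, against 562 in untreated cells (log2 -0.19 and 0.99). Its SD between the cisplatin arrays, 0.83 on the log2 scale, exceeded its mean difference of 0.40 (SE 0.62).

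Among motors that act on chromosomes and kinetochores, KIF4A, a chromokinesin that also organises the central spindle, was at 393 and 375 in B1 and B2, against 455 in untreated cells (log2 -0.21 and -0.28). KIF4A has a near-identical intronless copy, KIF4B, and whether its probe set also reads that copy was not tested. KIF22 (Kid), which pushes chromosome arms away from the poles, was the 1 mitotic kinesin higher in both arrays, at 247 and 381, against 197 in untreated cells (log2 0.33 and 0.95; mean 0.64, SE 0.36). Its other probe set was level in B1 and higher in B2, by 0.67. KIF2C (MCAK), a depolymerase that corrects attachments at kinetochores, was at 791 and 937, against 867 in untreated cells, and KIFC1 (HSET), a minus-end motor that clusters centrosomes, was at 265 and 380, against 277 in untreated cells (log2 -0.06 and 0.46). For KIF2C and KIFC1 the untreated value lay between the cisplatin values. KIF2B, a relative of KIF2C, was dim (mean log2 under 6) and differed by -0.05 in B1 and 0.06 in B2. CENPE, a kinetochore kinesin whose symbol lies outside the KIF names, was at 307 and 371, against 506 in untreated cells (log2 -0.72 and -0.45).

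**Figure D2:**
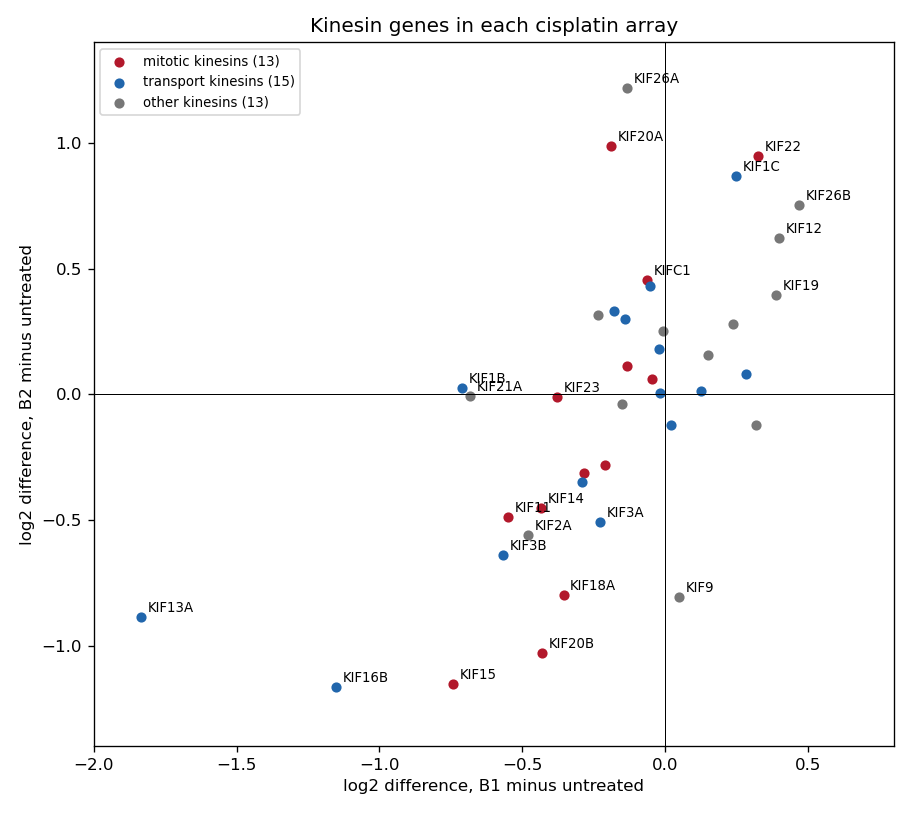
Log2 difference from untreated of each kinesin gene in B1 (horizontal axis) and in B2 (vertical axis), coloured by class, with names at the larger differences. KIF13A, KIF16B and KIF15 lie at the lower left, at least 1.5-fold lower in both arrays, whereas KIF26A and KIF20A were slightly lower in B1 and higher in B2, by 1.22 and 0.99.

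For the transport kinesins the median difference (log2) was -0.14 for B1 and 0.01 for B2, nearer to the medians of all genes than those of the mitotic class. Of the 15 genes, 5 (33.3%) were lower in both arrays and 3 (20.0%) higher in both, against 27.4% and 39.2% of all genes. Of the 11 at a mean log2 value of at least 6, 36.4% were lower and 9.09% higher in both, against 34.2% and 29.8% of all genes at that level. The mitotic median minus the transport median was -0.24, and it was -0.14 in B1 and -0.29 in B2. The lowest mean differences of the whole family were nevertheless those of transport kinesins of endosomes. KIF13A, which moves recycling endosomes, had an intensity of 243 in B1 and 469 in B2, against 867 in untreated cells, 2.57-fold lower on average (log2 -1.83 and -0.89; mean -1.36, SE 0.51). It ranked 190 from the lowest of 19775 genes. KIF16B, which carries early endosomes, was at 64.0 and 63.4, against 142 in untreated cells, 2.23-fold lower (log2 -1.15 and -1.17; mean -1.16, SE 0.18; limma adjusted p = 0.969), and ranked 302. B1 and B2 were nearly equal for KIF16B, whereas for KIF13A the SD between them was 0.67 on the log2 scale. KIF16B in both cisplatin arrays lay at the log2 value of 6 below which genes were taken as dim.

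Other probe sets of these genes gave smaller differences on average. Of the 6 probe sets of KIF13A, 5 were lower in both arrays, by as much as -2.19 in B1 and -2.27 in B2 for a dim one at 10.7 and 10.2, against 49.0 in untreated cells. The remaining one was at 40.8 and 89.7, against 40.4 in untreated cells. The mean over all its probe sets was -0.91. The other probe set of KIF16B was at 42.4 and 62.1, against 71.1 in untreated cells (log2 -0.74 and -0.19), so the mean over both was -0.81. By means over all probe sets, 0 kinesins were 2-fold lower in both arrays.

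KIF3A and KIF3B, the motor subunits of the heterotrimeric kinesin that carries cargo along cilia, were both lower in both arrays. KIF3B was at 633 and 602 in B1 and B2, against 938 in untreated cells (log2 -0.57 and -0.64; mean -0.60, SE 0.19), and KIF3A at 195 and 161, against 229 in untreated cells (log2 -0.23 and -0.51). Both probe sets of each gene were lower in both arrays. KIF3C, which can replace KIF3B in the complex, was at 123 and 176, against 140 in untreated cells, so its untreated value lay between the others. KIF17, another ciliary and dendritic motor, was dim and differed by 0.13 in B1 and 0.01 in B2.

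The heavy chains of conventional kinesin stayed near their untreated values. KIF5B, the form found in most tissues, was at 1859 in B1 and 2138 in B2, against 1888 in untreated cells (log2 -0.02 and 0.18), and the neuronal forms KIF5A (log2 0.28 and 0.08) and KIF5C (log2 -0.14 and 0.30) were dim. Among motors of vesicles and mitochondria, KIF1B was at 349 and 581, against 572 in untreated cells (log2 -0.71 and 0.02). Its 4 probe sets were all lower in B1, and 2 of them were lower in B2 as well. KIF1C, which carries dense-core vesicles and integrins, was at 334 and 515, against 282 in untreated cells (log2 0.25 and 0.87), but the mean over its 3 probe sets was 0.20. KIF1A, the neuronal vesicle motor, was at 67.7 and 61.4, against 66.9 in untreated cells.

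KIF13B, a carrier of the polarity protein DLG1, was dim and lower in both arrays, by log2 differences of -0.29 and -0.35. Of the minus-end motors, KIFC3, which acts at epithelial junctions, was at 89.4 and 90.9, against 90.6 in untreated cells, and KIFC2 was at 98.7 and 138, against 103 in untreated cells. The other probe set of KIFC2 was higher in both arrays (log2 0.31 and 1.05), and the mean over both was 0.44, against 0.19 for the brighter one. KIFC3 was the member with the median difference of the family, -0.01.

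The other kinesins had medians of 0.05 (B1) and 0.25 (B2). Of these 13 genes, 3 (23.1%) were lower and 5 (38.5%) higher in both arrays, against 27.4% and 39.2% of all genes. However, 9 of the 13 were dim, and for dim probe sets the arrays cannot tell a low transcript from none. KIF2A, a depolymerase of spindle poles and neurons, was at 282 and 267 in B1 and B2, against 394 in untreated cells (log2 -0.48 and -0.56; mean -0.52, SE 0.19), close to KIF11 in size. KIF21A, which restrains microtubule growth, was at 333 and 532, against 535 in untreated cells, so that the difference of this probe set was in B1 (log2 -0.68 and -0.01). KIF9, a motor of motile cilia, was at 839 and 464, against 811 in untreated cells, and was lower in B2 alone (log2 0.05 and -0.81). Its 3 brighter probe sets are of the type that may cross-hybridise, and the mean over all 4 was -0.19. KIF7, the Hedgehog pathway kinesin of the cilium tip, was at 89.1 and 130, against 105 in untreated cells.

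The dim kinesins of all classes lay between 8.27 and 108 over the 3 arrays. In this class KIF26B, an atypical kinesin, differed by 0.47 in B1 and 0.75 in B2, KIF12 by 0.40 and 0.62, and KIF19, a regulator of cilium length, by 0.39 and 0.39. These 3 were higher in both arrays, but over all probe sets the mean was 0.28 for KIF26B and 0.21 for KIF19. KIF26A, the relative of KIF26B, differed by -0.13 in B1 and 1.22 in B2, so it was higher in B2 only. KIF24, a suppressor of ciliogenesis, differed by 0.24 and 0.28, and KIF21B, the relative of KIF21A, by 0.15 and 0.16. KIF6, another ciliary motor, differed by 0.32 and -0.12, KIF27, the relative of KIF7, by -0.01 and 0.25, and KIF25 by -0.15 and -0.04. For KIF25 the mean over both probe sets had the opposite sign, 0.26.

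**Figure D3:**
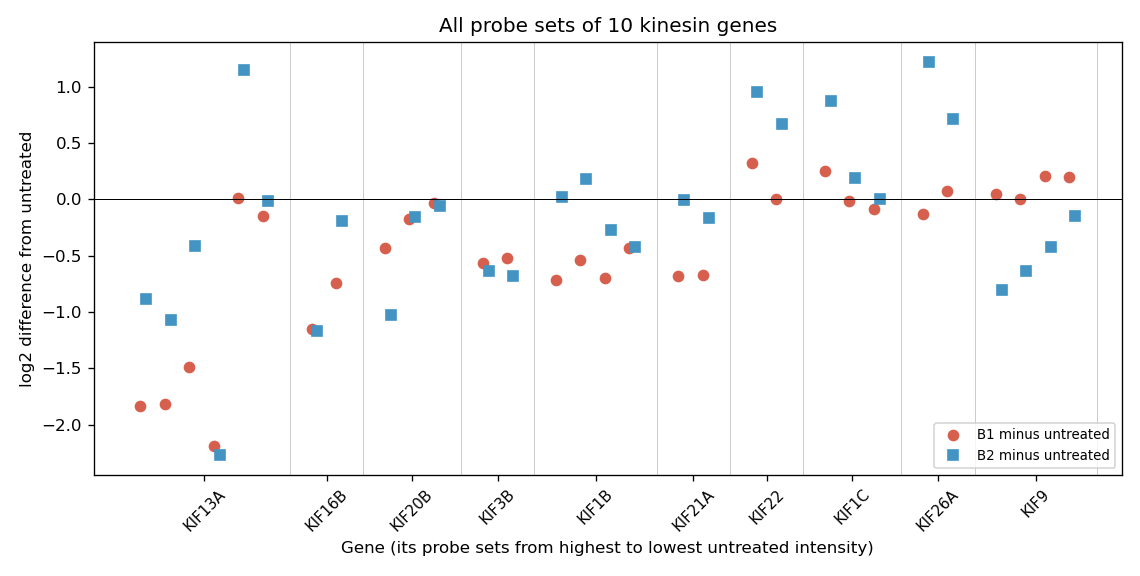
Log2 difference from untreated in B1 (circles) and B2 (squares) for every probe set of 10 kinesin genes, ordered within a gene from the highest to the lowest untreated intensity. Both probe sets of KIF16B and of KIF3B lie below 0 in both arrays, whereas KIF13A has a probe set that was 1.15 higher in B2.

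Genomic span, the distance between a gene's annotated ends in RefSeq, was set against the difference within each class. The 12 kinesins that span over 100 kb differed by a median of -0.25 (B1) and -0.12 (B2) on the log2 scale, and the 29 shorter ones by -0.13 and 0.11. Over the mean differences the medians were -0.28 for long and 0.07 for shorter kinesins, a long minus short value of -0.35. Over all genes these medians were -0.17 and -0.07 for spans over 100 kb and 0.05 and 0.08 for shorter spans. Of the 12 long kinesins 6 were lower in both arrays, against 48.7% of all long genes, and of the 29 shorter ones 10 (34.5%), against 23.1% of all shorter genes. The share for long kinesins was close to that of long genes in general. With dim genes set aside, 70.4% of all long genes and 27.0% of all shorter ones were lower in both.

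Among mitotic kinesins only KIF15 (107 kb) and KIF4A (131 kb) span over 100 kb, so the classes were also divided at 50 kb. All 6 mitotic kinesins over 50 kb (KIF15, KIF20B, KIF18A, KIF11, KIF14 and KIF4A) were lower in both arrays, against 45.2% of all genes of that span. Their medians were -0.43 (B1) and -0.64 (B2). These 6 were not dim, whereas the 45.2% covers 6202 genes, of which only 3400 were not dim. For spans over 100 kb, setting dim genes aside raised the share of all genes from 48.7% to 70.4%. Shares of all genes divided at 50 kb were not counted without dim genes, so 45.2% is not a base rate matched for level. Of the 7 shorter mitotic kinesins 2 (28.6%) were lower in both arrays, KIF18B and KIF23, against 19.3% of all genes of up to 50 kb. The medians of the 7 were -0.13 and 0.11. KIF22 (14.6 kb) and KIF20A (8.61 kb), the mitotic kinesins highest after cisplatin on average, are among the shortest. Transport kinesins over 50 kb had medians of -0.24 and -0.06 (10 genes), and the 5 shorter ones -0.02 and 0.18. Of the 10, 4 (40.0%) were lower in both arrays, against 45.2% of all genes of that span. Of the 5 shorter ones 1 (20.0%) was lower in both, against 19.3%. Other kinesins, most of them dim, had medians of 0.10 and 0.07 over 50 kb (8 genes, 25.0% lower and 37.5% higher in both). The 5 shorter ones of that class had -0.13 and 0.39 (20.0% lower and 40.0% higher in both). The transport kinesins with the lowest values, KIF13A (229 kb) and KIF16B (301 kb), have the longest spans of that class, and KIF1C (30.5 kb), the highest, is among the shorter ones.

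Ranked over genes, span and mean log2 difference had a Spearman correlation of -0.81 across the 13 mitotic, -0.75 across the 15 transport and -0.24 across the 13 other kinesins. In B1 it was -0.71, -0.68 and -0.05 for the mitotic, transport and other classes, and in B2 it was -0.79, -0.69 and -0.38. Across all 41 kinesins it was -0.34 in B1 and -0.50 in B2. Across all 19731 genes with a span it was -0.33 in B1 and -0.20 in B2, and with dim genes set aside it was -0.56 and -0.31 (10201 genes). With dim members set aside too, it was -0.64 and -0.80 across 12 mitotic and -0.61 and -0.77 across 11 transport kinesins. Across the mitotic class span was also ranked against the difference between the cisplatin arrays, B2 minus B1, with -0.79, where all genes had 0.01 and transport kinesins 0.13. The points share their arrays and are genes, not independent replicates, so the correlations describe these 3 arrays. KIF26B, at 554 kb the longest member, was higher in both arrays and was dim.

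**Figure D4:**
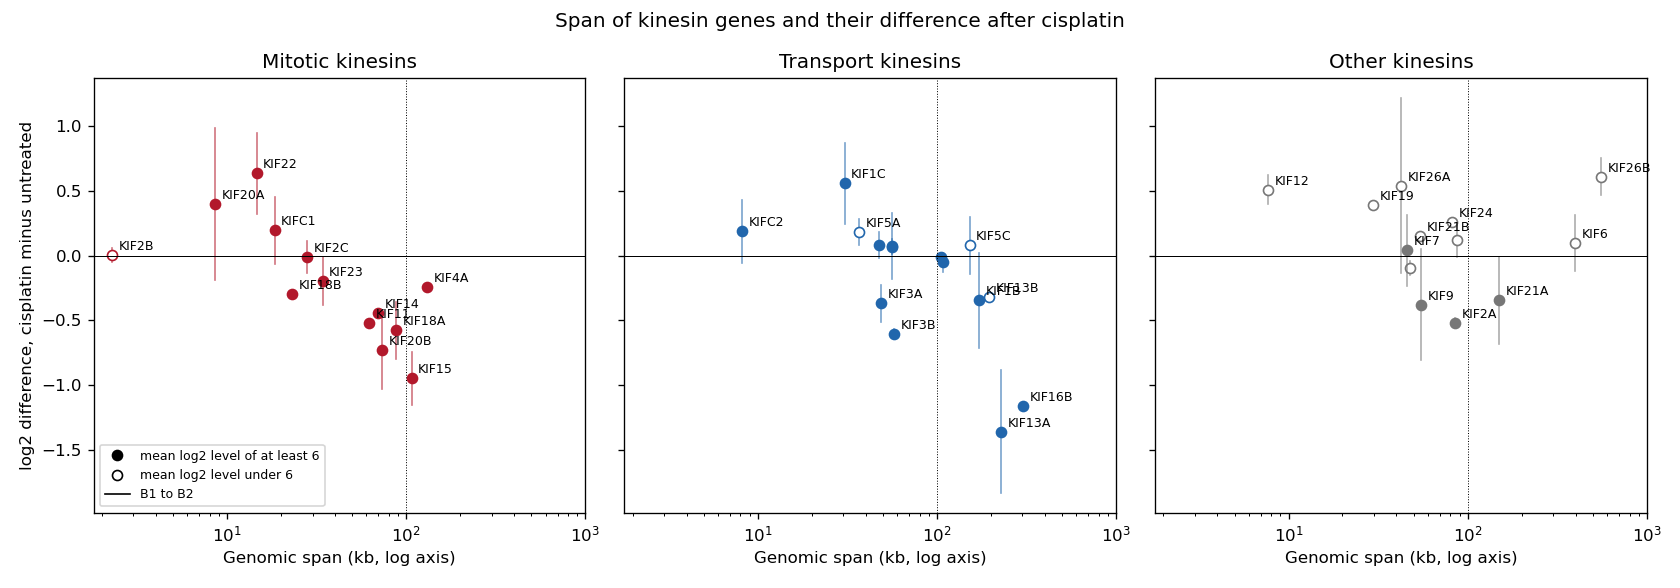
Mean log2 difference of each kinesin gene (vertical axis, cisplatin minus untreated) against its genomic span in kb on a log axis, by class; lines join B1 and B2, open symbols have a mean log2 value under 6, and the dotted line marks 100 kb. Among mitotic kinesins KIF22 (14.6 kb, 0.64) lies highest and KIF15 (107 kb, -0.95) lowest, with KIF4A (131 kb, -0.25) well above KIF15.

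Genes that work with kinesins were described from lists. Most genes of each list had a mean log2 value of at least 6, including all 17 mitotic partners. At that level 34.2% of all genes were lower and 29.8% higher in both arrays, unlike the shares of all genes given below. Of 17 measured mitotic partners, 7 (41.2%) were lower and 3 (17.6%) higher in both arrays, against 27.4% and 39.2% of all genes; the medians were -0.22 (B1) and 0.03 (B2). The kinase AURKA was at 862 and 567, against 1142 in untreated cells (log2 -0.41 and -1.01), the cytokinetic scaffold ANLN at 2210 and 1606, against 2875, and the kinetochore protein KNSTRN at 569 and 435, against 756. NUSAP1, a microtubule bundling protein, was at 851 and 721, against 990 in untreated cells. These 4, named for the largest absolute moderated t of the list, were lower in B2 than in B1, as were KIF15, KIF18A and KIF20B. In contrast, 7 of the 17 partners were lower than untreated in B1 and higher in B2, and 0 were the reverse. The mitotic kinesins KIF11, KIF20A, KIF22, KIF23, KIF2B, KIF2C and KIFC1 were higher in B2 than in B1.

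Of 22 light chains and cargo adaptors, 9 (40.9%) were lower and 6 (27.3%) higher in both arrays, against 27.4% and 39.2% of all genes. BORCS5, which links lysosomes to kinesin, was at 101 and 67.6, against 159 in untreated cells (log2 -0.65 and -1.23). TRAK1, the mitochondrial adaptor, was at 191 and 203, against 259 in untreated cells, MADD, an adaptor of KIF1A and KIF1B, at 186 and 133, against 222, and the light chain KLC4 at 117 and 97.7, against 82.7. Of these KLC4 alone was higher in both arrays. The 17 genes of intraflagellar transport, the cargo system of the heterotrimeric kinesin, had medians of -0.13 and -0.11. Of the 17, 8 (47.1%) were lower and 3 (17.6%) higher in both arrays, against 27.4% and 39.2% of all genes. The median span of this list was 80.3 kb, and of all genes over 50 kb 45.2% were lower in both. WDR19 was at 124 and 88.9, against 220 in untreated cells (log2 -0.83 and -1.31), and TRAF3IP1 at 124 and 120, against 215 (log2 -0.79 and -0.84), but over all their probe sets the means were -0.29 and -0.28. IFT88 was at 127 and 104, against 145 in untreated cells, and IFT81 at 148 and 173, against 187. Over all probe sets of IFT81 the mean log2 difference was -0.01, against -0.22 for the one shown.

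Dynein and dynactin, the motor complex that walks the other way, had medians of -0.01 and 0.11 (21 genes, 28.6% lower and 33.3% higher in both arrays, against 27.4% and 39.2% of all genes). DYNLT3, a dynein light chain, was at 975 and 1495, against 745 in untreated cells, and the dynactin subunit DCTN3 at 905 and 1254, against 816. The intermediate chain DYNC1I2 was at 1793 and 1481, against 2064 in untreated cells, and the light intermediate chain DYNC1LI1 at 409 and 342, against 456. For DYNC1I2 the mean log2 difference over all probe sets was -0.14, against -0.34 for the one shown. The tubulin genes, which encode the track, had medians of 0.05 and 0.24. Among the 13 genes, 15.4% were lower and 53.8% higher in both arrays, against 27.4% and 39.2% of all genes. TUBB2A was at 1842 and 3081, against 1131 in untreated cells (log2 0.70 and 1.45), TUBA1A at 1835 and 2942, against 1302, TUBB3 at 3086 and 3984, against 2744, and TUBB4B at 4196 and 4879, against 3688. Some tubulin genes are near-identical in sequence, so their probe sets may read each other's transcripts. None of the genes in these lists passed the limma test (0 of 92), and 2, both of intraflagellar transport, had an unadjusted p under 0.05.

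Counts in a single array show how far B1 and B2 differed within the family. In B1, 5 kinesins were at least 1.5-fold lower than untreated, beside 5.09% of all genes, and 0 were that much higher, beside 1.90%. In B2, 7 were that much lower, beside 10.1% of all genes, and 6 that much higher, beside 9.02%. KIF13A, KIF15 and KIF16B were among the lower genes in each array. KIF1B and KIF21A were added in B1 alone, and KIF18A, KIF20B, KIF3B and KIF9 in B2 alone. The 6 higher genes in B2 were KIF12, KIF1C, KIF20A, KIF22, KIF26A and KIF26B.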

How the data were processed

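Total RNA (200 ng per array) was labelled by the manufacturer's in vitro transcription method and hybridised to Affymetrix arrays, per the labels' protocols. The deposited values are intensities made by the authors with RMA, per the submitters' processing notes; the sources used here give neither its version nor a chip definition. The 54675 intensities per array ran from 3.03 to 19645, hence a linear scale, and were put on the log2 scale with no pseudocount. The precision of every value is limited by the number of arrays.

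After 62 control probe sets were left out, 41091 probe sets with 1 gene symbol gave 19775 genes (1801 probe sets had several symbols and 11721 were not listed in the platform annotation used), with symbols updated by gene number to GRCh38.p14, which was also the source of spans. All genes entered 1 linear model of the log2 values (lmFit and eBayes of limma 3.58.1, run in R 4.3.3), with Benjamini-Hochberg adjustment over all genes. The fit had 1 residual and 2.01 prior degrees of freedom. Its code was also run on simulated data, where changed genes had to be called only at a spread far tighter than that of these arrays. That check therefore does not show that the test could call changes here. Counts of genes lower or higher in both cisplatin arrays, medians and the 2-fold rule are descriptions, read beside the same over all genes.

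Every measured kinesin was named, with intensities where its mean log2 value was at least 6 and with differences otherwise; of each list of partner genes, up to 4 members with the largest moderated t at a mean log2 value of at least 6, and CENPE. The classes, lists and members were chosen with earlier results of these data known. Alternatives changed the probe sets, the level filter, the normalization, the variance prior, the fold, the span limit and the classes, and left out either cisplatin array.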

Additional observations from a re-analysis of the deposited data

How the results depend on the processing

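No kinesin was called by limma under any of the 7 settings fitted; 1 to 5 had an unadjusted p under 0.05, and the smallest adjusted p was 0.956 or more. With only genes at a mean log2 value of at least 6, 27 kinesins were left. Of these, 14 (51.9%) were lower and 2 (7.41%) higher in both arrays, against 34.2% and 29.8% of all such genes. The medians were then -0.27 for mitotic and -0.20 for short kinesins (long minus short -0.15, against -0.35 as reported). With the mean of all probe sets, 0 kinesins were 2-fold lower in both arrays and the mitotic median was -0.30. Without probe sets that may cross-hybridise these were 2 and -0.30, among the 36 kinesins left. The mitotic genes KIF18A, KIF20B, KIF22 and KIFC1 dropped out under that setting. With the probe sets as reported, 3 kinesins were at least 1.5-fold lower in both arrays. The mitotic median, -0.25 over the mean differences as reported, was -0.16 after quantile normalization, -0.28 after median centring and -0.27 with KIF2A counted as mitotic. Dividing spans at 50 kb gave a long minus short difference of -0.51. The cause of these shifts was not tested beyond the changed setting itself. With B1 alone 29 of 41 kinesins were lower and 12 higher, and with B2 alone 19 and 22. At 2-fold these were 2 and 0 with B1, and 3 and 1 with B2. The same shares over all genes were not counted for a single array, so these counts have no base rate here. The median of all genes was 0.03 in B1 and 0.05 in B2. Kinesin medians with either array alone ran from -0.28 to -0.28 (mitotic), -0.14 to 0.011 (transport), -0.25 to -0.12 (long) and -0.13 to 0.11 (short), and long minus short from -0.23 to -0.12. The mean difference kept its sign in 37 of 41 kinesins with B2 alone and in 29 of 41 with B1 alone. Leaving out either cisplatin array leaves no residual degrees of freedom, so no test was made there. No paired analysis was possible because the untreated group has 1 array. A single untreated array and low signal in 14 of 41 kinesins limit every difference.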
